A study of Mus musculus with 8 samples.

Results

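The intestinal identity transcription factors considered here are Cdx1, Cdx2, Hnf4a, Hnf4g, Gata4, Gata6, Klf4, Klf5 and Elf3. They were taken by gene symbol from the array's probe-to-gene table. Each of the 9 genes had 1 probe set, out of 19505 named genes and 22206 probe sets, and all 9 lay above the level of 5.64 (log2) under which 95% of the values of olfactory receptor probe sets fell. RNA came from frozen, homogenized duodenum of untreated mice aged 8 to 11 weeks, measured on Clariom S mouse arrays. In 4 knockout mice floxed Nfkbia, the gene of the NF-κB inhibitor IκBα, was deleted by Cre under the villin promoter, which is active in intestinal epithelium. Each knockout had a littermate labelled wild type, which gave 4 sibling pairs, and the labels used here do not say whether these littermates carried floxed alleles or Cre. By label, pair 1 was male, pair 2 was female, pair 3 was a male knockout with a female wild type, and pair 4 the reverse. Nfkbia itself was lower in 4 of 4 knockouts, with log2 differences of −2.93, −3.26, −1.29 and −3.13 in pairs 1 to 4.

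These factors hold the gene programme of the intestinal lining. The homeobox proteins CDX1 and CDX2 set intestinal against gastric fate, and HNF4α and HNF4γ are nuclear receptors that drive enterocyte genes for lipid handling and the brush border. GATA4 marks the proximal small intestine and GATA6 is found along its whole length. KLF5 acts in proliferating crypt cells, KLF4 in differentiated and goblet cells, and the ETS factor ELF3 in epithelial differentiation and in responses to inflammatory signals.

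The deposited values carry little information on differences between pairs. For most probe sets the means of the 4 pairs almost coincided (median SD 0.0175, against a median SD of 0.179 for the within-pair differences), so a high value in a knockout is mirrored by a low one in its sibling. For the 9 factors the pair means spanned 0.03 to 0.25. Comparisons were therefore made within pairs, with limma and the sibling pair as a block. The 4 differences were more alike within pairs 1 and 2 and within pairs 3 and 4 (r = 0.682 and 0.673 across probe sets) than between these sets (0.346 to 0.42), which the p-values do not allow for. The Y-linked genes Eif2s3y, Kdm5d and Uty went against the sex labels. Eif2s3y read 6.82 in the male and 6.89 in the female of pair 3, and 6.85 in the male and 6.83 in the female of pair 4, so no sex difference was visible within these mixed pairs. It read 7.32 and 7.34 in the males of pair 1 and 7.29 and 7.35 in the females of pair 2. RNA of the whole wall was measured, so fewer cells of a type and less RNA per cell cannot be told apart.

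Of the 9 factors, Elf3 and Cdx1 rose in knockouts and the other 7 did not pass the test. Elf3 was 1.46-fold and Cdx1 1.35-fold higher. Over all probe sets the same test called 5.86%, of which 3.16% of all probe sets were higher and 2.7% lower. Unadjusted p by limma lay under 0.05 for 6098 of the 22206 probe sets. Counts in the gene lists below are to be read beside these shares. Hnf4a and Klf5 were also higher in 4 of 4 pairs, and Hnf4g and Gata6 lower in 4 of 4, without passing the test. Over all probe sets 34.4% had 1 direction in all 4 pairs. Cdx2 and Klf4 differed in direction between pairs 1 and 2 and pairs 3 and 4, and Gata4 was the most variable of the group. The median difference of the 9 was 0.24 (log2), against −0.015 for all probe sets and 0.20 for 10 housekeeping genes. By pair the median of the 9 was −0.02, 0.05, 0.27 and 0.51, so pairs 1 and 2 showed little of it. The values of knockouts and wild types did not overlap for 5 factors (Elf3, Cdx1, Hnf4a, Hnf4g and Klf5), where 33.1% of all probe sets had such separate groups. With pair means almost equal, 1 direction in all 4 pairs mostly brings such separation with it. Separate groups therefore add little to the direction, here and for the single factors below.

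**Figure D1:**
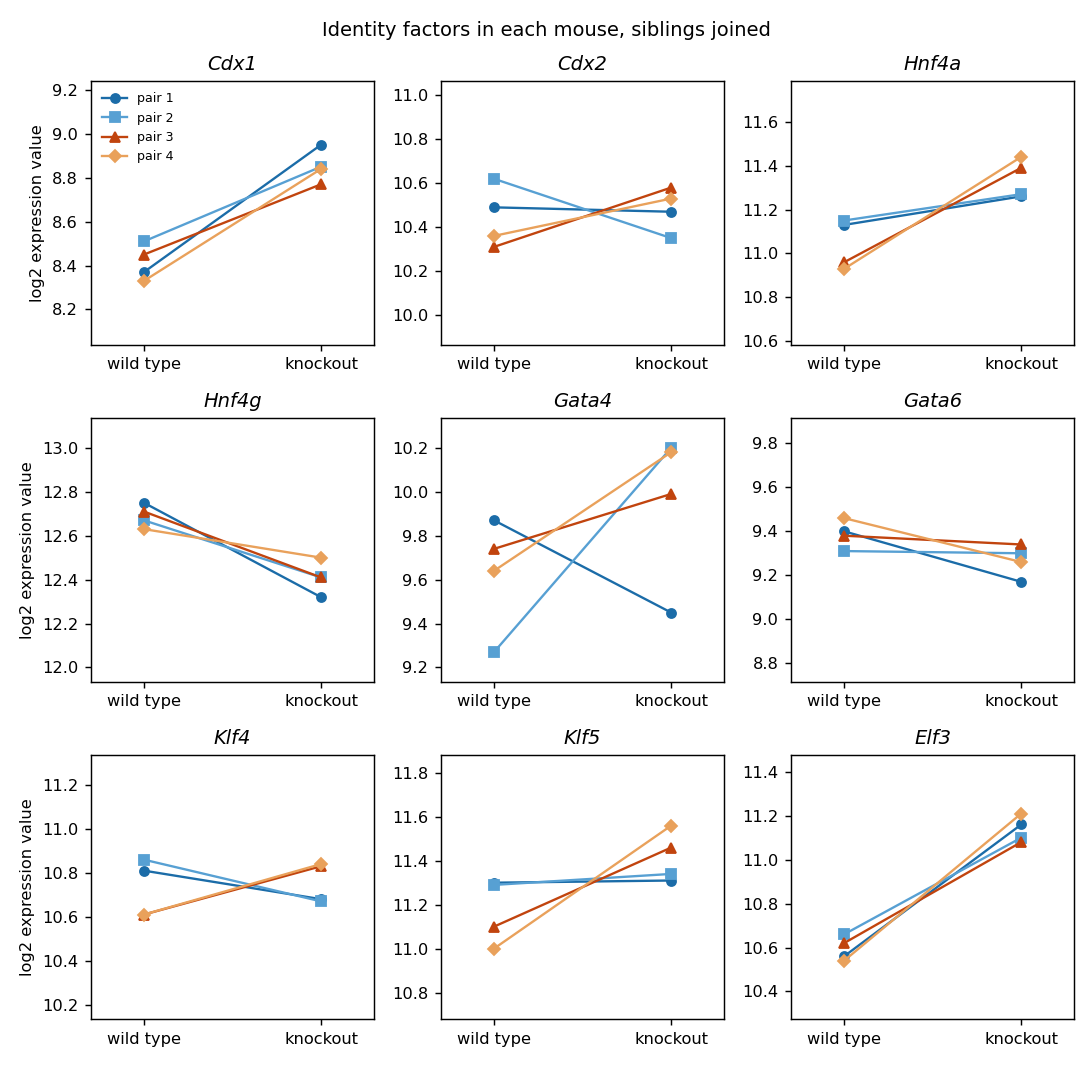
Log2 expression value (vertical axis, 1.2 units in every panel) of each of the 9 factors in the wild-type and knockout mouse of each sibling pair, with siblings joined by a line. All 4 lines rise for Elf3, Cdx1, Hnf4a and Klf5, all 4 fall for Hnf4g and Gata6, and the lines of Gata4, Cdx2 and Klf4 cross.

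Elf3 was the factor with the clearest difference. Knockouts read 11.16, 11.1, 11.08 and 11.21 (log2 expression value, pairs 1 to 4), and wild types 10.56, 10.66, 10.62 and 10.54. All knockouts lay above all wild types. The within-pair differences were 0.60, 0.44, 0.46 and 0.67, with a mean of 0.54 ± 0.111 (SD, n = 4 pairs, 95% interval 0.36 to 0.72, limma adjusted p = 0.0195). Only 4.32% of probe sets had a larger absolute difference. The call was lost without pair 1, 2 or 4 (adjusted p = 0.0704, 0.0714 and 0.0721), where the count over all probe sets also fell from 1301 to 204, 145 and 239. It was kept without pair 3 (0.0496).

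The promoter window of Elf3 is shown because NF-κB is the factor that IκBα holds back, and because Elf3 passed the test. RefSeq windows (GRCm38.p6, 250 bases before to 50 after the start) were at hand for Elf3, Hnf4a, Klf4 and Cdx2, with 2 windows for Hnf4a. They were searched on both strands for the 10-base κB consensus. This motif was chosen after the Elf3 window and the values had been seen. Of these 5 windows 1 matched, that of Elf3, where 4.51% of all 32851 windows of the same length did. The 250 bases before the Elf3 start lie at chr1:135258473-135258722, and the printed strand is the minus strand, on which the gene lies. For comparison, 60 bases before the start of Nfkbia, itself a known NF-κB target, are given from chr12:55492648-55492707, also minus strand. Capitals mark the match, which reads GGGGATTTCC for Elf3 and GGGAATTTCC for Nfkbia on the opposite strand.
Elf3: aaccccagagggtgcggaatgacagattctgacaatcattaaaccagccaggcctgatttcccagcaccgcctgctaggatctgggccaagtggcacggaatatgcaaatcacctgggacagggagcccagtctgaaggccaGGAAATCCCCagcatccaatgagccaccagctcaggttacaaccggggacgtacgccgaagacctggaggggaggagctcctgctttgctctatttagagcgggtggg
Nfkbia: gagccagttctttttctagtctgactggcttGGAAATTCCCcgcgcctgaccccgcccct
The match lies 108 to 99 bases before the Elf3 start and 29 to 20 bases before that of Nfkbia. It is a match of letters, and binding there was not measured.

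Genes linked to ELF3 by earlier work gave a mixed picture. Of 5 measured, 3 rose (Nos2, Ccl20 and Tgfbr2) and 0 fell, where 3.16% of all probe sets were called higher. Nos2 and Ccl20 were known to be high in these data when the list was drawn up, so this count is a description. The TGF-β receptor gene Tgfbr2, whose transcription ELF3 is known to drive, rose, with differences of 0.51, 0.58, 0.35 and 0.61 and a mean of 0.51 ± 0.116 (n = 4 pairs, limma adjusted p = 0.0218). Nos2, which encodes the inducible nitric oxide synthase, differed by 1.82, 1.62, 3.12 and 3.65 (adjusted p = 0.0167). The chemokine gene Ccl20 differed by 2.37, 3.12, 2.19 and 2.74 (adjusted p = 0.00183). All 3 lay higher in every knockout than in its sibling. The prostaglandin synthase gene Ptgs2 (−0.27 ± 0.228) and the claudin gene Cldn7 (−0.17 ± 0.0660) did not pass the test. Tgfbr2 lost its call without pair 1, 2 or 4 (adjusted p = 0.0751, 0.0947 and 0.0786). Nos2 lost its call with trend and robust variance (limma adjusted p = 0.0634) and with RNA integrity as a covariate (0.0517).

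**Figure D2:**
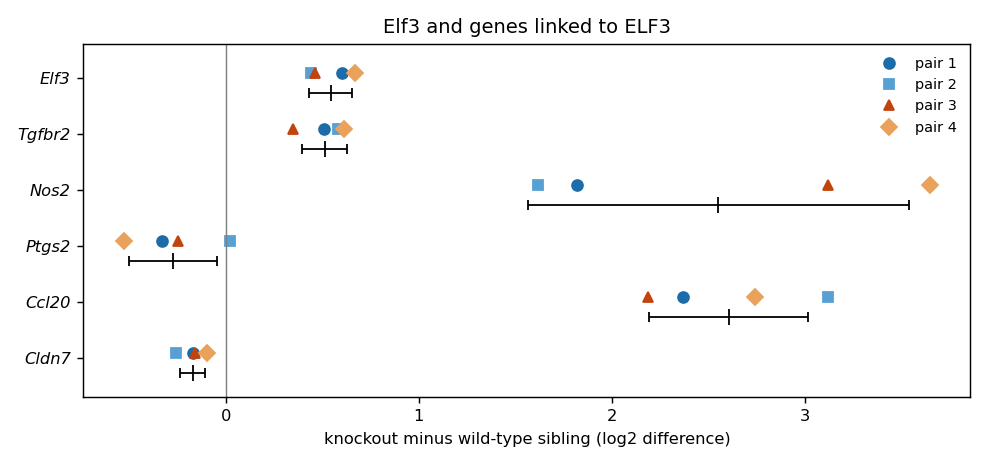
Difference between each knockout and its wild-type sibling (log2, horizontal axis) for Elf3 and 5 linked genes. Coloured symbols are the 4 pairs, and black bars give the mean ± SD. Elf3 and Tgfbr2 lie close together near 0.5 in all pairs, while Nos2 and Ccl20 lie between 1.62 and 3.65.

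The CDX genes differed from each other in how evenly the pairs behaved. Cdx1, the crypt-rich member, read 8.95, 8.85, 8.77 and 8.84 in knockouts and 8.37, 8.51, 8.45 and 8.33 in wild types. The groups did not overlap, and the differences of 0.58, 0.34, 0.32 and 0.51 averaged 0.44 ± 0.128 (SD, n = 4 pairs, 95% interval 0.25 to 0.63, limma adjusted p = 0.0332). Cdx1 lost its call on leaving out any 1 pair (adjusted p from 0.0691 to 0.107), and after centring on housekeeping genes (0.0542). Cdx2, the main regulator of intestinal fate, read 10.47, 10.35, 10.58 and 10.53 in knockouts and 10.49, 10.62, 10.31 and 10.36 in wild types. These groups overlapped fully. Its differences of −0.02, −0.27, 0.27 and 0.17 averaged 0.04 ± 0.238 (adjusted p = 0.846), with a 95% interval of −0.21 to 0.29, which leaves room for a rise of up to 1.22-fold. The response of Cdx1 exceeded that of Cdx2 in 4 of 4 pairs, by 0.40 ± 0.265 on average. In an exact two-sided sign-flip test 2 of 16 sign assignments were as extreme, the fewest that 4 pairs allow (adjusted p = 0.167 over the 4 paralog comparisons made here), so this design cannot reach 0.05.

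Genes linked to CDX factors were measured for 13 of 13 symbols. None of them was called higher, and 2 were lower, Lct and Slc15a1, with 7 at unadjusted p under 0.05 by limma. Over all 22206 probe sets 2.7% were called lower, and 6098 had unadjusted p under 0.05. Lct, the lactase gene and a classic CDX2 target, differed by −2.56, −2.38, −1.60 and −4.82 (adjusted p = 0.027). The peptide transporter gene Slc15a1 differed by −0.94, −0.92, −0.15 and −0.88 (adjusted p = 0.0418). Both were lower in every knockout, least so in pair 3. The adhesion gene Cdh17 (−0.02 ± 0.0614) and the sucrase gene Sis (−0.26 ± 0.195) did not pass the test. Without pair 1 or 2 none of the 13 was called (6 and 5 at unadjusted p under 0.05), without pair 3 the count was 2, and without pair 4 it was 1.

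The HNF4 receptors had mean differences of opposite sign. Hnf4a read 11.26, 11.27, 11.39 and 11.44 in knockouts and 11.13, 11.15, 10.96 and 10.93 in wild types. Every knockout lay above every wild type, with differences of 0.13, 0.12, 0.43 and 0.51 and a mean of 0.30 ± 0.202 (n = 4 pairs, limma adjusted p = 0.108). Hnf4g read 12.32, 12.41, 12.41 and 12.5 in knockouts and 12.75, 12.67, 12.71 and 12.63 in wild types. Every knockout lay below every wild type, with differences of −0.43, −0.26, −0.30 and −0.13 and a mean of −0.28 ± 0.124 (adjusted p = 0.0825). Neither passed the test. Their 95% intervals, unadjusted, ran from 0.07 to 0.52 for Hnf4a and from −0.47 to −0.09 for Hnf4g. The response of Hnf4a exceeded that of Hnf4g in 4 of 4 pairs, by 0.56, 0.38, 0.73 and 0.64, with a mean of 0.58 ± 0.149. The exact sign-flip test again gave 2 of 16 (adjusted p = 0.167). Hnf4g passed the test with trend and robust variance (adjusted p = 0.0328) and after centring on housekeeping genes (0.0168). The latter scaling called 5735 of 22206 probe sets lower. Hnf4a has 2 RefSeq start windows and 1 probe set here, so transcripts from each start were not measured apart.

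Genes linked to HNF4 receptors were mostly uncalled. Of 15 measured, 1 was lower, the acyl-CoA synthetase gene Acsl5, 0 were higher, and 6 had unadjusted p under 0.05 by limma. That 1 call is near the share of 5.86% called over all probe sets. Acsl5, which activates fatty acids, differed by −0.42, −0.37, −0.20 and −0.51 (mean −0.38 ± 0.130, adjusted p = 0.0465), and lost its call on leaving out any 1 pair. The factor gene Creb3l3 (−0.40 ± 0.171, adjusted p = 0.0505), itself a known HNF4 target, and the brush-border myosin gene Myo7b (−0.33 ± 0.164, adjusted p = 0.0715) were lower in 4 of 4 pairs and did not pass the test. The apolipoprotein genes Apoa1 (−0.18 ± 0.164), Apoa4 (−0.20 ± 0.392) and Apob (−0.22 ± 0.160) did not pass it either. The list had 6 members lower and 0 higher in all 4 pairs, and a median of −0.18. Over all probe sets 3970 of 22206 were lower in all 4 pairs. After centring on housekeeping genes 7 of the 15 were called lower, but so were 5735 of all 22206 probe sets. That scaling moved the overall median to −0.19.

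**Figure D3:**
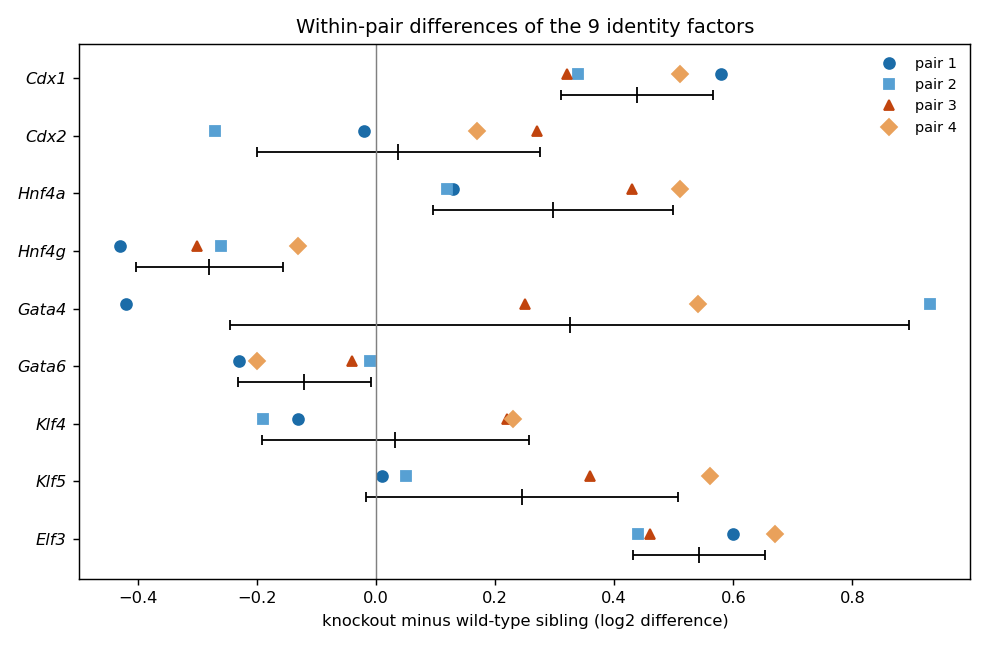
Difference between each knockout and its wild-type sibling (log2, horizontal axis) for the 9 factors. Coloured symbols are the 4 pairs, and black bars give the mean ± SD. Elf3, Cdx1, Hnf4a and Klf5 lie to the right of 0 in all pairs, Hnf4g and Gata6 to the left, and Gata4 spans −0.42 to 0.93.

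The GATA genes contrasted in their spread. Gata4 read 9.45, 10.2, 9.99 and 10.18 in knockouts and 9.87, 9.27, 9.74 and 9.64 in wild types. The knockout was lower than its sibling in pair 1 and higher in the other 3. The differences of −0.42, 0.93, 0.25 and 0.54 averaged 0.32 ± 0.570 (n = 4 pairs, limma adjusted p = 0.344), and only 2.34% of probe sets had a larger SD over pairs. Without pair 1 the mean was 0.57 (adjusted p = 0.114). Gata6 read 9.17, 9.3, 9.34 and 9.26 in knockouts and 9.4, 9.31, 9.38 and 9.46 in wild types, and the groups overlapped. Its differences of −0.23, −0.01, −0.04 and −0.20 averaged −0.12 ± 0.111 (adjusted p = 0.351). The 95% interval of −0.30 to 0.06 holds no fall beyond 0.811 times the wild-type level. Gata6 was called lower after centring on housekeeping genes (−0.30, adjusted p = 0.0412), a scaling that lowered the overall median over probe sets from −0.015 to −0.19.

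Genes of the proximal small intestine, where GATA4 is needed, varied widely between pairs. Over all probe sets 5.86% were called. Of 14 proximal genes measured, 2 rose (the iron transporter genes Slc40a1 and Slc11a2) and 3 fell (Lct, the hormone gene Gip and the cholesterol importer gene Npc1l1). On leaving out pair 1, 2, 3 and 4 in turn, 2, 1, 1 and 1 were called higher and 0, 0, 1 and 1 lower. Slc40a1 lost its call without pair 1, 3 or 4 (limma adjusted p = 0.0525, 0.0526 and 0.0745), Slc11a2 without pair 2 (0.0622), Lct without pair 1 or 2 (0.0801 and 0.0886), and Gip on leaving out any 1 pair (0.0559 to 0.133). Gata4 was highest relative to its sibling in pair 2, then in pair 4, pair 3 and pair 1. After the values were seen, genes with this order were counted: 4 of the other 14 (28.6%) shared it, namely Onecut2, Cybrd1, Slc40a1 and Trpv6, against 738 of 22206 probe sets (3.32%). This count is a description and carries no test. The ferric reductase gene Cybrd1 differed by 0.05, 3.70, 1.26 and 1.78. The factor gene Onecut2 differed by 0.46, 2.91, 0.70 and 1.55. The homeobox gene Pdx1, which marks the most proximal duodenum, differed by −0.07, 1.90, 1.76 and 2.03, so pair 1 stood apart for it as well. The fatty acid binding protein gene Fabp1 (−0.08, 2.61, −0.39 and −0.86) was high in pair 2 only. None of these 4 genes passed the test (adjusted p = 0.0975 for Cybrd1, 0.0767 for Onecut2, 0.0612 for Pdx1 and 0.732 for Fabp1). The labels used here do not say whether siblings were sampled at the same place along the duodenum, and its part in these values was not tested.

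**Figure D4:**
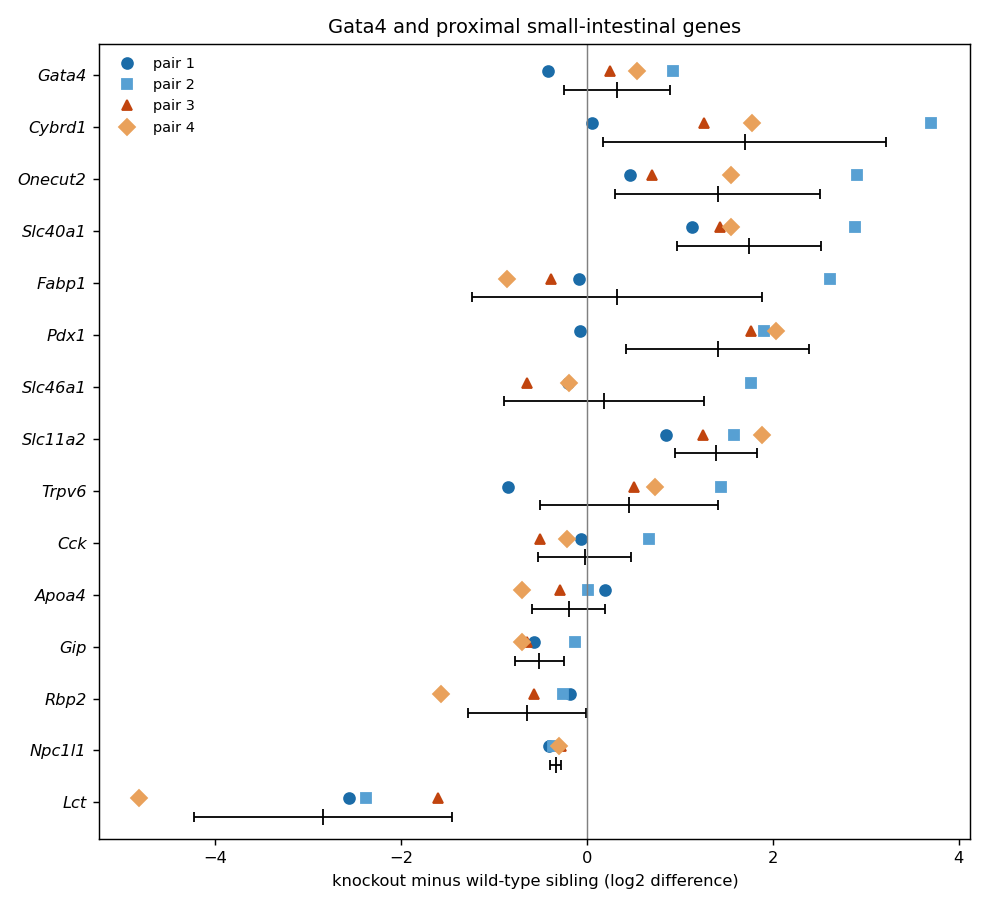
Difference between each knockout and its wild-type sibling (log2, horizontal axis) for Gata4 and 14 genes of the proximal small intestine, ordered by their value in pair 2. Coloured symbols are the 4 pairs, and black bars give the mean ± SD. Pair 2 is the rightmost symbol for Gata4, Cybrd1, Onecut2, Slc40a1 and Fabp1, and Lct lies left of 0 in all pairs.

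Genes of other gut regions gave 2 calls of 9 (ileum), 2 of 8 (colon) and 2 of 13 (stomach), where 5.86% of all probe sets were called. Of 9 ileal genes 1 rose, the bile acid binding protein gene Fabp6 (0.41 ± 0.0529, limma adjusted p = 0.0272), and 1 fell, Amn, a subunit of the vitamin B12 receptor (−0.60 ± 0.267, adjusted p = 0.0352). Slc10a2, the ileal bile acid transporter gene that GATA4 is known to hold down in proximal gut, read 8.65 in knockouts and 8.68 in wild types (−0.02 ± 0.0250). Fabp6 lost its call on leaving out any 1 pair (adjusted p from 0.0820 to 0.0965) and without the block (0.293), and Amn lost it without pair 1, 2 or 4 (0.103, 0.122 and 0.107). Cubn, the other subunit of that receptor, differed by −1.64, −1.67, −0.97 and −5.07. It was lower in 4 of 4 knockouts, most so in pair 4, and did not pass the test (mean −2.34 ± 1.85, adjusted p = 0.0759). Of 8 colonic genes 1 rose (Retnlb, 0.87 ± 0.453) and 1 fell (Aqp8, −0.90 ± 0.492), while 5 of the 8, Retnlb among them, averaged below the olfactory receptor level. Aqp8 lost its call on leaving out any 1 pair (adjusted p from 0.0659 to 0.115) and Retnlb without pair 1, 2 or 3 (0.109, 0.122 and 0.0751). Without pair 1, 2 or 3 limma called none of the 8 (2, 2 and 3 at unadjusted p under 0.05), and without pair 4 it called 2 higher and 0 lower. Of 13 stomach genes 2 fell (Muc5ac, −0.74 ± 0.435, and Pgc, −0.61 ± 0.197) and 0 rose. Pgc averaged 5.16 in wild types and 4.55 in knockouts, both below that level. On leaving out any 1 pair limma called none of the 13 stomach genes (7, 8, 5 and 6 at unadjusted p under 0.05 without pair 1, 2, 3 and 4). The largest differences of the list were not called. Gkn2, a gastrokine gene of the stomach lining, differed by −1.27, −1.14, −5.16 and −5.41 (mean −3.24 ± 2.36, adjusted p = 0.0634). Its relative Gkn1 differed by −0.84, −0.49, −4.89 and −4.67 (adjusted p = 0.0925), Gkn3 by −0.41, −0.54, −3.81 and −4.01 (0.0998), and the trefoil factor gene Tff1 by −0.90, −0.69, −4.91 and −4.84 (0.0836). All 4 were lower in every knockout, far more so in pairs 3 and 4. The list had 8 members lower and 0 higher in all 4 pairs, where 3970 of 22206 probe sets were lower in all 4.

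The KLF genes shared a split between pairs. Klf4 read 10.68, 10.67, 10.83 and 10.84 in knockouts and 10.81, 10.86, 10.61 and 10.61 in wild types. It was lower in the knockouts of pairs 1 and 2 and higher in those of pairs 3 and 4, with a mean difference of 0.03 ± 0.224 (n = 4 pairs, limma adjusted p = 0.864, 95% interval −0.21 to 0.27). Klf5 read 11.31, 11.34, 11.46 and 11.56 in knockouts and 11.3, 11.29, 11.1 and 11.0 in wild types. Its differences of 0.01, 0.05, 0.36 and 0.56 averaged 0.24 ± 0.262 (adjusted p = 0.208), and pairs 3 and 4 held the larger ones. The response of Klf5 exceeded that of Klf4 in 4 of 4 pairs, by 0.14, 0.24, 0.14 and 0.33 (Klf4 minus Klf5 −0.14, −0.24, −0.14 and −0.33, exact sign-flip test 2 of 16, adjusted p = 0.167). For Gata4 against Gata6 the difference was −0.19, 0.94, 0.29 and 0.74 (4 of 16, adjusted p = 0.25). Of 7 genes linked to KLF4 or KLF5, limma called none, and 5 had unadjusted p under 0.05. The proto-oncogene Myc (0.41 ± 0.255, adjusted p = 0.0748) and the cell cycle kinase gene Cdk1 (0.30 ± 0.229) were among these 5. The alkaline phosphatase gene Alpi, a known KLF4 target, was not (0.0050 ± 0.454, adjusted p = 0.989).

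The split between pairs was shared beyond the KLF genes. In 4 of the 9 factors (Klf4, Klf5, Cdx2 and Hnf4a) both differences in pairs 3 and 4 exceeded both in pairs 1 and 2, where 22.5% of all probe sets showed this. The mean difference in pairs 1 and 2, and then in pairs 3 and 4, was −0.14 and 0.22 for Cdx2, 0.12 and 0.47 for Hnf4a, −0.16 and 0.22 for Klf4 and 0.03 and 0.46 for Klf5. They were closer for Elf3 (0.52 and 0.56), Cdx1 (0.46 and 0.42) and Gata6 (−0.12 in both). Pairs 3 and 4 are those of mixed sex by label. Markers of pancreatic acinar cells moved with this split. Over 8 measured acinar genes the median difference was −0.43, 0.27, −3.82 and −3.32 in pairs 1 to 4, and their mean level ran from 7.82 to 10.45 in wild types and from 6.52 to 8.33 in knockouts, with 0 of 8 below the olfactory receptor level. Adipocyte markers (6 measured, 1 below that level) differed by 3.12, 2.78, 0.25 and 0.0050, with mean levels of 5.87 to 7.24 in wild types and 7.20 to 8.85 in knockouts. Smooth muscle markers (8 measured, 0 below that level) differed by 0.22, 0.02, −0.48 and −0.63, with mean levels of 10.51 to 10.85 in wild types and 10.18 to 10.74 in knockouts. Over the 13 stomach genes (5 below that level) the median was −0.47, −0.22, −0.84 and −0.60, with mean levels of 6.29 to 7.29 in wild types and 5.52 to 6.20 in knockouts, and Gkn1, Gkn2, Gkn3 and Tff1 followed the split. Limma called none of the 22 acinar, adipocyte and smooth muscle markers (4 acinar, 4 adipocyte and 0 smooth muscle genes had unadjusted p under 0.05). With the acinar mean as a covariate beside the block, Cdx2 and Klf4 had differences of −0.15 each and Klf5 of 0.05. Hnf4a then differed by 0.14 (limma adjusted p = 0.41). Elf3 and Cdx1 kept their direction, and their adjusted p was 0.0564 and 0.0785. The adipocyte mean gave Elf3 0.0521 and Cdx1 0.108. It moved the other 4 factors the other way, with differences of 0.22 for Cdx2 and 0.23 for Klf4. Klf5 then differed by 0.47 and Hnf4a by 0.48 (limma adjusted p = 0.0608 and 0.0522). Both means follow the split between pairs, so these fits cannot tell cell content apart from anything else that differs between the 2 sets of pairs. The part of these cells, and of stomach tissue, in the results was not tested.

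General epithelial markers bear on how much epithelium each sample held. Over 14 genes, among them Epcam, Cdh1 and Krt8, the mean level ran from 12.40 to 12.46 in wild types and from 12.38 to 12.40 in knockouts, and none lay below the olfactory receptor level. The median difference was −0.06, and −0.08, −0.07, −0.14 and −0.09 in pairs 1 to 4. It averages over shifts of opposite sign. Of the 14 genes 6 were lower in all 4 pairs, among them Vil1 (−0.34), and 3 were higher, among them Krt19 (0.28). Over all 22206 probe sets 3970 were lower and 3667 higher in all 4. Limma called none of them, with 8 at unadjusted p under 0.05. Centring each array on these genes left Elf3 (0.58, adjusted p = 0.0127) and Cdx1 (0.48, adjusted p = 0.0229) called, as the only 2 of the 9.

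Markers of the cell types whose programmes these factors serve were counted as well. Over all probe sets 3.16% were called higher and 2.7% lower. Of 9 enterocyte genes 3 were lower and 0 higher, namely Ada, Treh and Slc6a19. This count fell to 1 without pair 2 or 3, and to 0 without pair 1 (where limma gave 4 genes an unadjusted p under 0.05) or pair 4 (3 genes). Of 7 enteroendocrine genes 3 were lower (Chga, Sct and Gip) and 0 higher, and of 7 Paneth cell genes 1, Ang4, was lower. For the enteroendocrine genes the count was 1 without pair 1 or 3 and 0 without pair 2 or 4 (4 genes with an unadjusted p under 0.05 in each). For the Paneth cell genes it was 4 without pair 3 and 0 without pair 1, 2 or 4 (5, 5 and 4 genes with an unadjusted p under 0.05). Limma called none of 7 goblet, 5 stem and 6 tuft cell genes (1, 2 and 1 at unadjusted p under 0.05). Outside the epithelium it called none of 6 fibroblast, 7 endothelial, 5 enteric neuron and glia and 6 macrophage genes (0, 4, 1 and 2 at unadjusted p under 0.05). Of 6 B cell genes 1 was higher (Cd22, 0.40 ± 0.103), as was 1 of 5 T cell genes (Cd4, 0.40 ± 0.134), and both lost their calls on leaving out any 1 pair (adjusted p from 0.0692 to 0.131 and from 0.0878 to 0.146). The other 4 T cell genes had mean differences below 0 without passing the test, among them Cd3g (−0.56 ± 0.362) and Cd8a (−0.34 ± 0.570), and the T cell list had a median of −0.30. GATA6 and KLF4 are also made by cells of the gut wall outside the epithelium, and the source of their RNA was not measured.

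Relatives of the 9 factors within the same protein families were compared next. Of 20 measured (other CDX, GATA, KLF and ETS genes) limma called none, with 4 at unadjusted p under 0.05. Gata2, a factor of blood and mast cells, had the largest difference (−0.41 ± 0.189, adjusted p = 0.0516), followed by Klf7 (0.35 ± 0.167, adjusted p = 0.0651). Gata2 averaged 5.98 in wild types and 5.57 in knockouts, the latter below the olfactory receptor level. Ehf, another epithelial ETS factor, differed by −0.48, −0.50, 0.23 and −0.05 (adjusted p = 0.384), and Elf1 by −0.12, 0.02, −0.04 and −0.14 (adjusted p = 0.56). Of the 8 ETS genes listed, Elf3 was the only one called in the reported fit, and whether its difference exceeded theirs was not tested. Gata5, also expressed in small intestine, differed by −0.32, −0.45, 0.16 and 0.07 (adjusted p = 0.504).

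Partner factors that act with the 9 in epithelial fate gave 2 rises and 1 fall among 27 measured, where 5.86% of all probe sets were called. Smad4, the common SMAD that works with HNF4 receptors in enterocytes, differed by 0.29, 0.40, 0.45 and 0.41 (mean 0.39 ± 0.0685, limma adjusted p = 0.0333). Grhl2, which keeps epithelial junctions, differed by 0.22, 0.32, 0.41 and 0.42 (mean 0.34 ± 0.0932, adjusted p = 0.0478). Gfi1, needed for goblet and Paneth cells, differed by −0.44, −0.62, −0.33 and −0.33 (mean −0.43 ± 0.137, adjusted p = 0.0355). All 3 had 1 direction in all pairs and lost their calls on leaving out any 1 pair. Without pair 1 another 2 were called higher, while without pair 2 or 4 limma called none (12 and 11 at unadjusted p under 0.05). The Wnt effector gene Tcf7l2 followed the split described above, with 0.02, 0.10, 1.15 and 1.25 (adjusted p = 0.144). So did Maf, with −0.20, −0.37, 0.46 and 0.43 (adjusted p = 0.777). In all 13 of the 27 did (48.1%), and 9 of the 20 family relatives (45.0%), where 22.5% of all probe sets did. Genes with the opposite split were not counted, and Prdm1 had it, with 0.44, 0.46, −0.37 and −0.40 (limma adjusted p = 0.926). Zfpm1, a cofactor of GATA proteins, differed by −0.06, 0.71, 0.62 and 0.69 (adjusted p = 0.0871), and its order over pairs was that of Gata4. Of the 27, 2 (7.41%) had this order, Onecut2 being the other, against 3.32% of all probe sets. This was counted after the values were seen and carries no test. Isx, a CDX2 target that restrains vitamin A uptake, differed by −0.19, −0.13, 0.0 and 0.03 (adjusted p = 0.57).

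**Figure D5:**
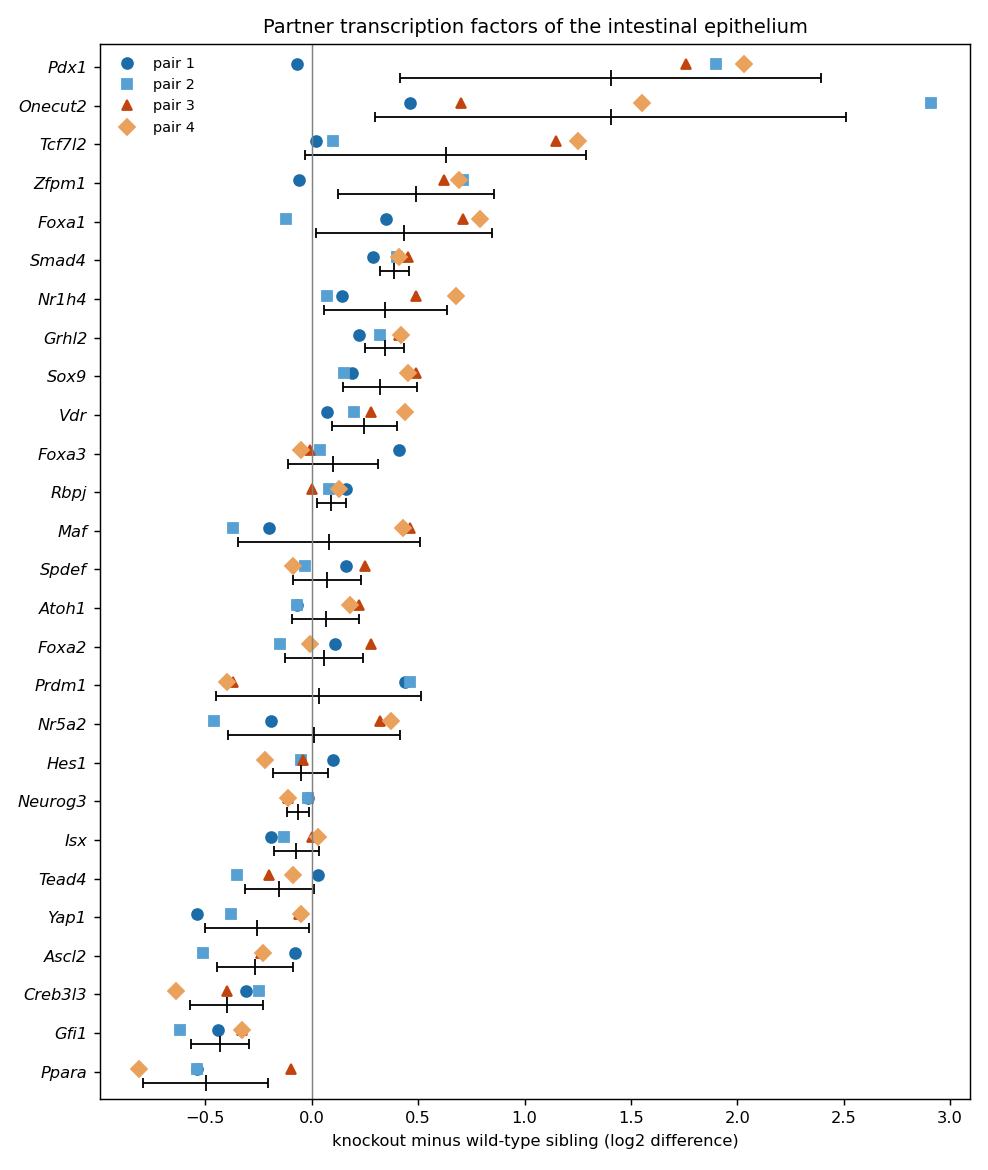
Difference between each knockout and its wild-type sibling (log2, horizontal axis) for 27 partner transcription factors, ordered by mean. Coloured symbols are the 4 pairs, and black bars give the mean ± SD. Smad4 and Grhl2 have tight symbols to the right of 0 and Gfi1 to the left, while Pdx1, Onecut2 and Tcf7l2 span more than 1 log2 unit.

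Genes whose 4 within-pair differences lay nearest to those of the called factors were listed by Euclidean distance over the 4 pairs. For Elf3 they were Cuta (distance 0.102), H2az1 (0.110) and Smcr8 (0.119). For Cdx1 they were Sidt1 (0.0922), Trp53bp1 (0.106) and Mrpl37 (0.107). With 4 pairs, 1 common size of difference suffices for such nearness.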

How the data were processed

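Gene expression was measured in duodenum of 4 knockout and 4 wild-type mice, 1 array each. The values are log2 expression per probe set, as deposited by the authors, and RMA and Transcriptome Analysis Console 4.0 are named per the submitters' processing notes. Their other settings are not stated in those notes. Array medians lay between 6.77 and 6.81. Arrays have no read depth, and their number limits the precision.

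All 22206 probe sets were tested with limma 3.58.1 (R 4.3.3), with the sibling pair as a block, no filter on low values and Benjamini-Hochberg adjustment over all probe sets at 0.05. The block left 3 residual degrees of freedom, 6.63 after moderation. The pairing comes from the labels, which name sibling pairs and littermates. The correlation between siblings in their deviation from the group mean was −0.913 to −0.87. The fit was tested on simulated data. Values after ± are the SD over 4 pairs. Intervals at 95% use the moderated standard error. Of the probe sets, 2634 are unnamed here, and 55 genes with several probe sets were read from the one with the highest mean.

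The factors, gene lists and naming rule (all 9 factors, Nfkbia, up to 4 called genes of each list or else 2 with the largest difference, and 3 nearest genes of each called factor) were chosen with earlier results of these data known. Other genes were named after their values were seen. Alternatives tried were no block, the pair as a random effect, leaving out pairs, added covariates, variance models, a filter on dim probe sets, and other scalings. Promoter windows came from RefSeq.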

Additional observations from a re-analysis of the deposited data

How the results depend on the processing

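The number of arrays and the 4 pairs limit what can be called. In the reported fit 1301 probe sets and 2 of the 9 factors were called. Without the block limma called 7648 probe sets and 5 factors (Elf3, Cdx1, Hnf4a and Klf5 higher, Hnf4g lower). Siblings deviated in opposite directions (correlation −0.913 to −0.87). For most probe sets the fit without the block therefore understates the standard error of the difference, and its calls are too many. With a random block the counts were 2018 and 1, the factor being Elf3. Leaving out 1 pair in turn gave 145 to 459 probe sets and 0 to 1 factors. Without pairs 1 and 2 there were 26 and 0 calls, and without pairs 3 and 4 there were 0 and 0 (5278 probe sets and 3 factors at unadjusted p under 0.05 by limma). With sex by label beside the block there were 464 and 1, and with RNA integrity 364 and 0. The sex covariate rests on labels that the Y-linked genes went against. It left the differences of Elf3 and Cdx1 unchanged at 0.54 and 0.44 and used up a residual degree of freedom. With the acinar mean there were 866 and 0, and with the adipocyte mean 870 and 0. Trend and robust variance gave 1997 probe sets and 3 factors, and centring on housekeeping genes 6231 (496 higher, 5735 lower) and 3 (Elf3 higher, Hnf4g and Gata6 lower). The other settings stayed within 1.5 times both counts.

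Over 18 settings the difference of Elf3 ran from 0.37 to 0.58 (adjusted p from 1.5e-04 to 0.186, called in 10) and that of Cdx1 from 0.26 to 0.48 (8.07e-04 to 0.212, called in 6). For both, the lowest adjusted p came from the fit without the block, whose calls are among those counted. The direction of Hnf4a, Hnf4g, Gata4, Gata6 and Klf5 was kept in all 18. Exact sign flips within pairs cannot reach 0.05 with 4 pairs, and for Elf3 and Cdx1 2 of 16 assignments were as extreme. That of Cdx2 turned in 7 settings: −0.14 (housekeeping), −0.01 (quantile), −0.15 (acinar mean), −0.059 (smooth muscle mean), −0.145 (without pairs 3 and 4), and −0.04 and −0.0067 (without pair 3 or 4). On leaving out 1 pair it ran from −0.04 to 0.14. That of Klf4 turned in the same 7, to −0.14, −0.0177, −0.15, −0.0823, −0.16, −0.03 and −0.0333, and on leaving out 1 pair it ran from −0.0333 to 0.107. Neither was called in any of them. Among other named genes not called, Cnn1 turned to 0.035, Dpt to 0.19, Tagln to 0.215 and Trpm5 to 0.0050 without pairs 3 and 4. With the acinar mean Dpt turned to 0.13, Tagln to 0.16 and Trpm5 to 0.0112, with the smooth muscle mean Tagln to 0.0232, and with the adipocyte mean Col1a2 to −0.0172. The causes were not tested. Each factor had 1 probe set, so no other could be tried.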
